A study of Homo sapiens with 4 samples.

Results

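The NRF2 and glutathione genes described here are 10 genes taken by symbol from a table of 18840 genes: NFE2L2 and KEAP1, which form the switch of the pathway, and NQO1, HMOX1, GCLC, GCLM, TXNRD1, SRXN1, GPX2 and GSR, which it controls. They were measured by poly(A) RNA sequencing in MCF10A, an immortalised but non-tumorigenic line of human mammary epithelial cells. Each of 4 cultures stably carried a pBabe retroviral construct: pBabe-miR-105, which holds a microRNA, pBabe-MYC, which holds a transcription factor, pBabe-GFP, or the pBabe vector itself. All 4 cultures grew in the same medium, DMEM/F12 with hydrocortisone, EGF, cholera toxin, insulin and horse serum, and the labels give no time after transduction, number of clones or copy number. There was 1 library per construct, so the spread between cultures is not known, and the GFP and vector libraries serve as 2 controls.

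NRF2, the protein of NFE2L2, is a transcription factor that the adaptor protein KEAP1 holds at a low level by bringing it to a ubiquitin ligase built on CUL3. Oxidants and electrophiles modify cysteines of KEAP1, and NRF2 then accumulates, pairs with a small MAF protein and binds antioxidant response elements beside genes for glutathione synthesis, thiol reduction, NADPH supply and detoxification. Since this control acts mainly on the protein, the mRNA of NFE2L2 says little of NRF2 activity, which was not measured here.

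The libraries held 6859698 reads (miR-105), 9795159 (MYC), 14025115 (GFP) and 9138429 (vector). Levels are read counts scaled for depth and composition (CPM), and 1 read was worth 0.157, 0.0948, 0.0722 and 0.108 CPM in that order. MYC mRNA, which checks the MYC label, stood at 463.5 CPM in the miR-105 library and 231.7 CPM in the library labelled MYC, against 198.1 CPM in GFP and 207.0 CPM in vector. It was therefore highest in a library that does not carry the MYC label, which leaves both labels without support from this transcript. MXI1 and TJP1, reported targets of miR-105, were lowest in different libraries. MXI1 had 13.96 CPM in the miR-105 library and 79.2 CPM in the library labelled MYC, against 88.85 CPM in GFP and 81.2 CPM in vector. TJP1 had 219.1 CPM in the miR-105 library and 99.3 CPM in the library labelled MYC, against 388.1 CPM in GFP and 264.3 CPM in vector. The microRNA itself was not measured. Every direction below therefore belongs to the library labelled MYC or to the one labelled miR-105, which is called the miR-105 library for short. The proliferation antigen MKI67 stood at 1169 CPM in the miR-105 library and 36.3 CPM in the library labelled MYC, against 14.9 and 11.4 CPM in the GFP and vector libraries. This difference moves with every miR-105 result below, and its part in them was not tested. All 6 markers of basal mammary epithelium had reads in every library, summing to 6623 CPM (miR-105), 7631 (MYC), 9328 (GFP) and 11340 (vector). The sum hides members that differ: KRT5 had 4654 CPM in the miR-105 library and 4138 CPM in the library labelled MYC, against 1614 CPM in GFP and 1757 CPM in vector, whereas KRT17 had 766.2 CPM in the miR-105 library and 1777 CPM in the library labelled MYC, against 5131 CPM in GFP and 6927 CPM in vector. TP63 was highest in the library labelled MYC, with 6.12 CPM in the miR-105 library and 77.2 CPM in the library labelled MYC, against 14.4 CPM in GFP and 7.135 CPM in vector. Their part in the results below was not tested. Markers of other cells were low: 6 fibroblast genes summed to between 27.45 and 158 CPM, mostly DCN and with COL3A1 at 0 reads throughout, and 4 leukocyte genes summed to between 3.61 and 10.5 CPM.

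In the miR-105 library the members split. The quinone reductase NQO1, the sulfiredoxin SRXN1 and the glutathione reductase GSR were each at least 2-fold above both controls, by 2.52-fold to 3.16-fold. The catalytic subunit of glutathione synthesis GCLC and the thioredoxin reductase TXNRD1 were at least 2-fold below both controls, by 2.02-fold to 2.705-fold. For NFE2L2 and KEAP1 themselves the widest gap to a control was 1.30-fold. In the library labelled MYC no member was 2-fold higher and TXNRD1 alone was 2-fold lower, by 4.16-fold and 3.355-fold. These are bulk libraries, in which less RNA per cell and fewer cells holding a transcript cannot be told apart.

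These counts are over 9 members, because GPX2 did not reach a mean of 1 CPM. With no replicates no test applies, and a gene is counted where it passes 2-fold against the GFP library and against the vector library. In the miR-105 library 3 of 9 members were higher and 2 of 9 lower, while 15.2% of the 12484 genes compared were higher and 18.1% lower, 33.3% in all. In the library labelled MYC 0 of 9 were higher and 1 of 9 lower, beside 9.59% and 11.3% of all genes, 20.9% together. Between the controls, GFP against vector, 0 of 9 members passed 2-fold in either direction, beside 6.14% of all genes, 4.01% higher and 2.14% lower. Count tests that take the GFP and vector libraries as 1 control group, which compare these libraries and not conditions, called the same 5 and 1 members: edgeR called 39.3% of all genes in the miR-105 library and 22.7% in the library labelled MYC, and DESeq2 called 26.9% and 14.1%. The median log2 fold change of the members against both controls was 0.046 in the miR-105 library and 0.156 in the library labelled MYC, beside 0.005 and 0.036 over all genes. The members were chosen with results of these data known, so the counts describe them and support nothing further.

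**Figure D1:**
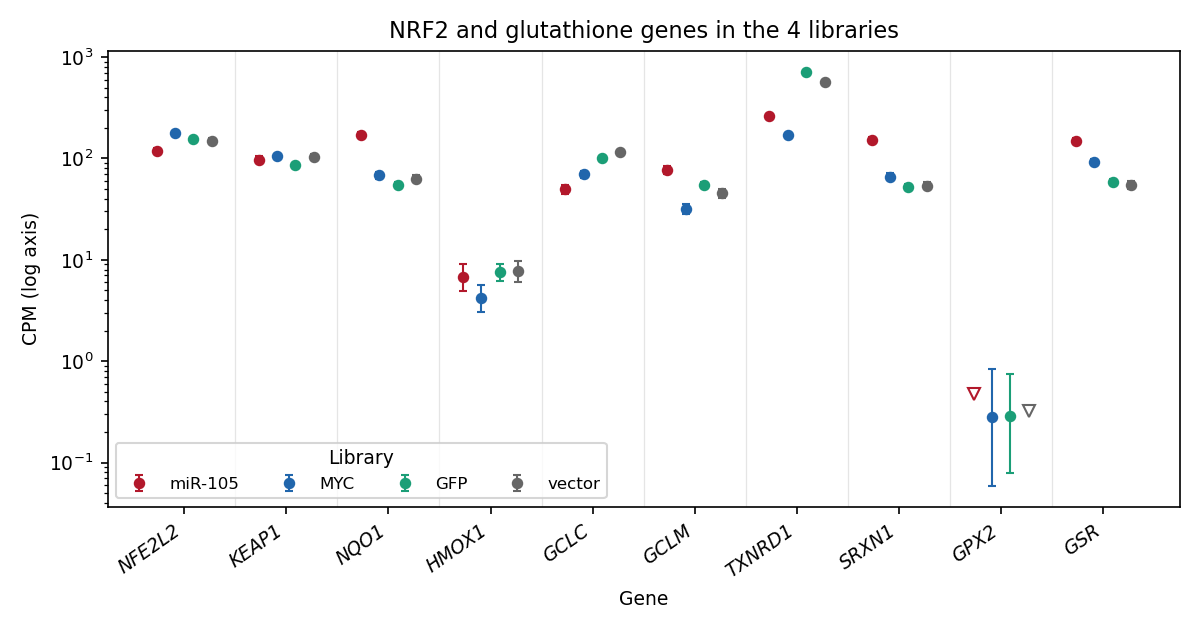
Level of each member in each library, in CPM on a log axis. Points are single libraries, bars are 95% exact Poisson intervals that cover counting error only, and open triangles mark the level of 3 reads where a library had 0 reads. NQO1, SRXN1 and GSR are highest in the miR-105 library, at 171.7, 152.4 and 148.7 CPM, while TXNRD1 is highest in the GFP and vector libraries, at 706.7 and 569.6 CPM.

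Of the regulators, NFE2L2 (GRCh38 2:177227595-177392697) stood at 118.7 CPM in the miR-105 library and 179.7 CPM in the library labelled MYC, against 154.7 CPM in GFP and 149.9 CPM in vector. The level was lowest in the miR-105 library and highest in the library labelled MYC, and the 2 controls could not be told apart at this depth, with a GFP to vector ratio of 1.03 (95% counting interval 0.964 to 1.105). Against GFP and vector the miR-105 library had ratios of 0.767 (0.705 to 0.834) and 0.792 (0.724 to 0.866), and the library labelled MYC had ratios of 1.16 (1.09 to 1.24) and 1.20 (1.12 to 1.285). All 4 intervals exclude 1, but they cover counting error only and none of the differences reaches 2-fold.

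KEAP1 (19:10486120-10503741) had 97.55 CPM in the miR-105 library and 105.3 CPM in the library labelled MYC, against 85.7 CPM in GFP and 104.1 CPM in vector. GFP was the low library, at 0.824 (0.756 to 0.898) of vector, and the other libraries were not distinguishable from one another beyond counting error. The miR-105 to vector ratio was 0.937 (0.846 to 1.04) and the MYC to vector ratio 1.01 (0.927 to 1.10). Its mean log2 fold change in the miR-105 library was 0.046, a value whose sign turned to −0.058 when library totals alone set the scale.

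NQO1 (16:69706996-69726951) encodes a cytosolic enzyme that reduces quinones with NADPH or NADH and is a textbook readout of NRF2 activity. It had 171.7 CPM in the miR-105 library and 68.1 CPM in the library labelled MYC, against 54.3 CPM in GFP and 63.1 CPM in vector. The miR-105 library stood apart, 3.16-fold (2.88 to 3.47) above GFP and 2.72-fold (2.46 to 3.01) above vector, and also 2.52-fold (2.29 to 2.78) above the library labelled MYC. The library labelled MYC was 1.25-fold (1.13 to 1.39) above GFP, but its ratio to vector, 1.08 (0.965 to 1.205), included 1.

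HMOX1 (22:35380361-35394214), the inducible heme oxygenase that opens heme to biliverdin, carbon monoxide and iron, was a low transcript in all 4 cultures. It had 6.74 CPM in the miR-105 library and 4.17 CPM in the library labelled MYC, against 7.585 CPM in GFP and 7.78 CPM in vector. With only 43 reads in the miR-105 library and 44 in the library labelled MYC, precision is low. The miR-105 ratios of 0.889 (0.6085 to 1.28) and 0.866 (0.580 to 1.28) cannot be told from 1. The library labelled MYC was lowest, at 0.550 (0.378 to 0.789) of GFP and 0.536 (0.360 to 0.7905) of vector. HMOX1 thus did not share the higher level that NQO1 had in the miR-105 library.

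GCLC and GCLM encode the catalytic and the modifier subunit of glutamate-cysteine ligase, the rate-limiting enzyme of glutathione synthesis, and both are classical NRF2 targets. GCLC (6:53497341-53616970) had 49.4 CPM in the miR-105 library and 69.7 CPM in the library labelled MYC, against 99.9 CPM in GFP and 114.8 CPM in vector. Both tested cultures were below both controls, the miR-105 library by 2.02-fold (1.79 to 2.29) and 2.32-fold (2.05 to 2.64) and the library labelled MYC by 1.43-fold (1.31 to 1.57) and 1.65-fold (1.498 to 1.81). The miR-105 difference sits at the threshold: it was 1.96-fold below GFP in the values as deposited, which would leave GCLC uncounted.

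GCLM (1:93885205-93909456) had 76.85 CPM in the miR-105 library and 31.8 CPM in the library labelled MYC, against 54.5 CPM in GFP and 45.1 CPM in vector. The miR-105 library was highest, 1.41-fold (1.255 to 1.58) above GFP and 1.705-fold (1.49 to 1.95) above vector. The library labelled MYC was lowest, 1.72-fold (1.51 to 1.96) below GFP and 1.42-fold (1.23 to 1.64) below vector. Neither reached 2-fold against both controls, and GCLM also differed between the controls, at 1.21-fold (1.07 to 1.37) in GFP over vector.

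Because the subunits form 1 enzyme, their reads were set against each other within each library, where scaling cancels. This ratio and the one of TXNRD1 to GSR below were chosen after the values had been seen, so they describe and test nothing. There were 0.643 (0.556 to 0.742) GCLC reads per GCLM read in the miR-105 library and 2.19 (1.925 to 2.504) in the library labelled MYC, against 1.83 (1.675 to 2.004) in GFP and 2.55 (2.27 to 2.86) in vector. GCLC reads therefore outnumbered GCLM reads in every library but miR-105, where GCLM reads were more numerous. These are reads and not levels per length, since GCLC has 8646 exon bases and GCLM 5420. The ratio is thus to be compared between libraries only, and the same holds for TXNRD1 and GSR, with 6708 and 3760 bases. Against GFP and vector the ratio in the miR-105 library was lower by a factor of 0.351 (0.296 to 0.416) and 0.252 (0.210 to 0.304). In the library labelled MYC the factors were 1.20 (1.02 to 1.41) and 0.8615 (0.723 to 1.03), on opposite sides of 1. The factor between the controls, GFP against vector, was 0.719 (0.621 to 0.8325).

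**Figure D2:**
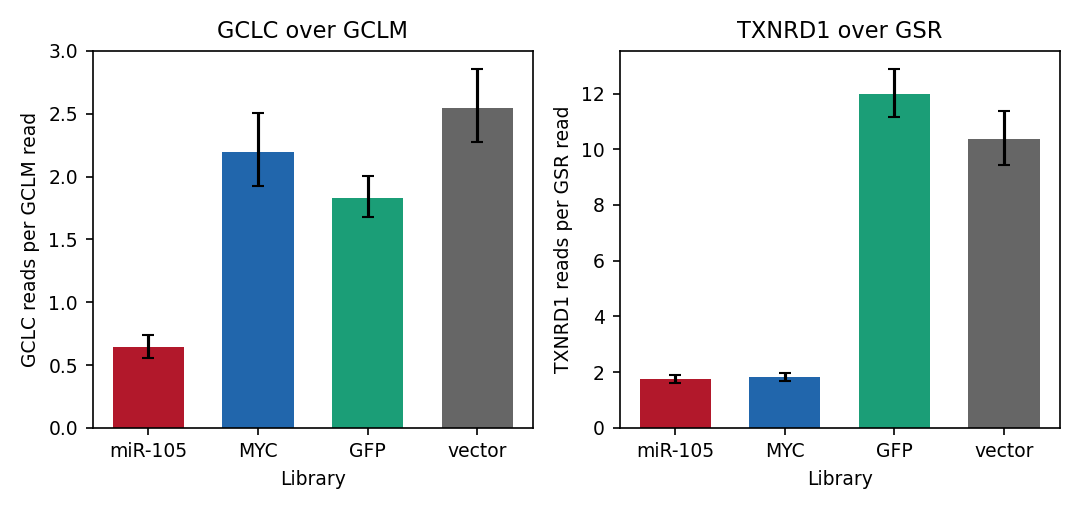
Reads of GCLC per read of GCLM (left) and reads of TXNRD1 per read of GSR (right) in each library, on linear axes from 0. Bars are single libraries and error lines are 95% exact binomial counting intervals. The GCLC to GCLM ratio is lowest in the miR-105 library, at 0.643, and the TXNRD1 to GSR ratio is near 1.8 in the miR-105 library and the library labelled MYC, at 1.76 and 1.82, against 11.99 and 10.35 in GFP and vector.

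TXNRD1 (12:104215779-104350305) encodes the cytosolic thioredoxin reductase, a selenoprotein that keeps thioredoxin reduced with electrons from NADPH. It had 261.3 CPM in the miR-105 library and 169.8 CPM in the library labelled MYC, against 706.7 CPM in GFP and 569.6 CPM in vector. Both tested libraries were below both controls, and all 4 levels differed from one another beyond counting error. The miR-105 library was 2.705-fold (2.57 to 2.85) below GFP and 2.18-fold (2.06 to 2.305) below vector. The library labelled MYC was 4.16-fold (3.96 to 4.38) and 3.355-fold (3.18 to 3.54) below them. The miR-105 library was itself 1.54-fold (1.44 to 1.65) above the library labelled MYC, and the controls differed 1.24-fold (1.20 to 1.28). TXNRD1 thus lay on the other side of the controls from NQO1, SRXN1 and GSR in the miR-105 library, although all of them are known NRF2 targets.

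TXNRD1 was also the only member whose 3′ UTR held a match to the seed of the microRNA in the construct. A microRNA pairs with its targets mainly through its seed, bases 2 to 8, and the mature sequences of miR-105 and the stretch of TXNRD1 are shown so that the match can be read. Capitals mark the seed in the microRNAs and the letters complementary to the seed of miR-105-5p in TXNRD1, at base 726 of the 3′ UTR of its GENCODE transcript, counted from 1 (microRNA sequences from RefSeq, GRCh38.p14).
hsa-miR-105-5p: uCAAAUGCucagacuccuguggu
hsa-miR-105-3p: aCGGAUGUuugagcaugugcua
TXNRD1 3′ UTR: gccattgcctgGCATTTGgtagtatagta
Both arms come from the loci MIR105-1 and MIR105-2 on the minus strand of chromosome X, where the 5p arm spans X:152392265-152392287 and X:152394458-152394480. Over all genes, 15.0% of 17797 3′ UTRs held the 5p match and 1.55% held the match to the 3p seed, which no member had. The match is a description and not a measured site, and its part in the TXNRD1 level was not tested. Of the other pathway genes listed below, 9 of those compared had a 5p match, and of these 3 were higher and 2 lower in the miR-105 library, with a median log2 fold of −0.004. Without a match there were 92 genes, with 16 higher, 21 lower and a median of 0.113.

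SRXN1 (20:646615-653370) encodes sulfiredoxin, which repairs hyperoxidised peroxiredoxins. It had 152.4 CPM in the miR-105 library and 66.2 CPM in the library labelled MYC, against 52.6 CPM in GFP and 54.05 CPM in vector. The miR-105 library was 2.90-fold (2.63 to 3.20) above GFP and 2.82-fold (2.53 to 3.15) above vector, and the library labelled MYC was 1.26-fold (1.13 to 1.398) and 1.22-fold (1.09 to 1.38) above them. In GENCODE annotation 85.0% of the exon length of SRXN1 is shared with the overlapping gene AL121758.1, so the authors' counting could have split or dropped reads there and the level is uncertain. Smaller shares of NQO1 (17.7%), NFE2L2 (17.6%) and GCLC (6.12%) exon length overlap other annotated genes. Overlaps were taken on either strand.

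GSR (8:30678061-30727999) encodes glutathione reductase, which returns oxidised glutathione to its reduced form with NADPH. It had 148.7 CPM in the miR-105 library and 93.1 CPM in the library labelled MYC, against 58.9 CPM in GFP and 55.0 CPM in vector. Both tested libraries were above both controls, which did not differ beyond counting error (1.07, 0.958 to 1.20). The miR-105 library exceeded GFP 2.52-fold (2.295 to 2.77) and vector 2.70-fold (2.42 to 3.015). The library labelled MYC exceeded GFP 1.58-fold (1.44 to 1.735) and vector 1.69-fold (1.52 to 1.89).

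TXNRD1 and GSR encode related flavoenzymes that feed NADPH into the thioredoxin and the glutathione system, and their mRNAs lay on opposite sides of the controls in both tested cultures. There were 1.76 (1.62 to 1.905) TXNRD1 reads per GSR read in the miR-105 library and 1.82 (1.69 to 1.97) in the library labelled MYC, against 11.99 (11.2 to 12.9) in GFP and 10.35 (9.45 to 11.4) in vector. The change against GFP and vector was a factor of 0.147 (0.1315 to 0.163) and 0.170 (0.150 to 0.192) in the miR-105 library, and 0.152 (0.137 to 0.169) and 0.176 (0.156 to 0.199) in the library labelled MYC. The controls, GFP against vector, differed by a factor of 1.16 (1.03 to 1.30).

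GPX2 (14:64939152-64942905), a glutathione peroxidase known from the gut epithelium, was hardly detected. It had 0 reads in the miR-105 library and 3 in the library labelled MYC, against 4 in GFP and 0 in vector. The 95% Poisson interval of 0 reads reaches up to 0.579 CPM in the miR-105 library and 0.399 CPM in vector, so no difference was detectable at this depth.

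**Figure D3:**
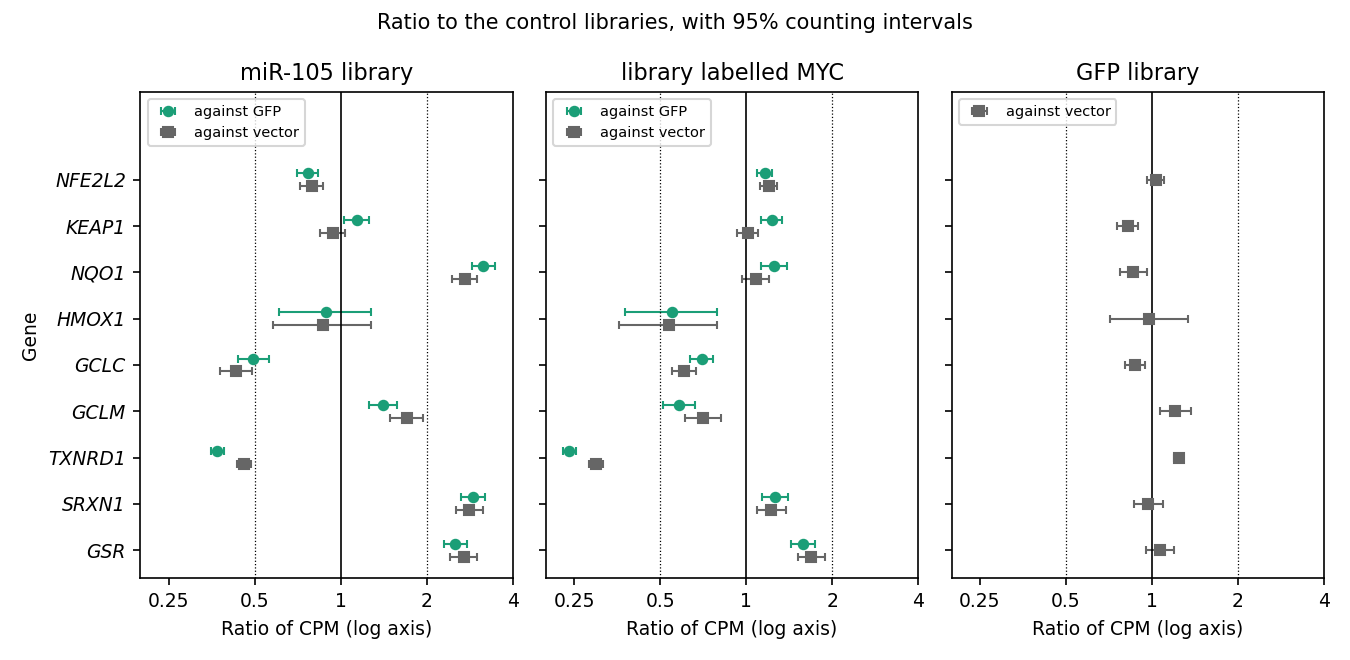
Ratio of each member's level in the miR-105 library (left) and the library labelled MYC (middle) to the GFP and vector libraries, and in GFP to vector (right), on a log axis. Bars are 95% exact binomial counting intervals, the solid line marks a ratio of 1 and dotted lines mark 2-fold. NQO1, SRXN1 and GSR lie beyond 2-fold in the left panel only, TXNRD1 lies beyond 2-fold on the low side in the left and middle panels, and no member passes 2-fold between the controls, where ratios run between 0.824 and 1.24.

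Set against counting error alone, most members differed from the controls. In the miR-105 library 7 of 9 members had both intervals on the same side of 1, 4 higher and 3 lower, and in the library labelled MYC 7 of 9, with 3 higher and 4 lower. The shares over all genes were 65.7% and 57.5%. Between the controls the interval excluded 1 for 5 of 9 members, beside 57.8% of all genes: KEAP1, NQO1 and GCLC were lower and GCLM and TXNRD1 higher in GFP than in vector. The members are thus near the background by this measure. Between the controls they differed by up to 1.24-fold, a size seen without miR-105 or the MYC label. It is no upper limit, since 6.14% of all genes passed 2-fold between the same control libraries.

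Levels can be compared between genes only per length, for which reads were divided by the GENCODE exon length to give CPM per kilobase (RPKM). TXNRD1 led in both controls, at 105.3 RPKM in GFP and 84.9 RPKM in vector, where the next member, KEAP1 or NFE2L2, had 25.9 RPKM (NFE2L2 in GFP) and 27.7 RPKM (KEAP1 in vector). In the miR-105 library SRXN1 led at 56.5 RPKM, followed by NQO1 at 52.8 RPKM, GSR at 39.5 RPKM and TXNRD1 at 38.95 RPKM. The SRXN1 level is uncertain because of its overlap with AL121758.1, and so is its lead over NQO1. The library labelled MYC had no such leader, with NFE2L2 at 30.05 RPKM, KEAP1 at 28.0 RPKM, TXNRD1 at 25.3 RPKM, GSR at 24.8 RPKM and SRXN1 at 24.5 RPKM. The order of levels within the pathway therefore differed between the cultures, with TXNRD1 first in the controls only.

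The promoters of 8 members were searched for the core of the antioxidant response element, TGACNNNGC, on both strands. RefSeq windows of 250 bases before to 50 bases after the start held it in 5 of 11 windows of 4 of these members, compared with 13.3% of 35116 windows over all genes. The stretches are shown because the same element stands beside genes that were lower (TXNRD1), higher but under 2-fold (GCLM), close to the controls (KEAP1) and hardly detected (GPX2) in the miR-105 library. Capitals mark the core, which reads GCNNNGTCA where it lies on the opposite strand, and each is written along the gene's own strand (GRCh38.p14).
TXNRD1 first promoter, 99 bases before the start, 12:104215670-104215698, plus: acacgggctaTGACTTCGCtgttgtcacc
TXNRD1 first promoter, 8 bases before the start, 12:104215761-104215789, plus: gcgtccttcgGCTCCGTCAgttcccacag
TXNRD1 second promoter, 102 bases before the start, 12:104286920-104286948, plus: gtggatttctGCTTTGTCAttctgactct
GCLM, 34 bases before the start, 1:93909446-93909474, minus: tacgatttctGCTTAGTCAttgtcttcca
KEAP1 second promoter, 54 bases before the start, 19:10502807-10502835, minus: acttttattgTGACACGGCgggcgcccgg
KEAP1 second promoter, 31 bases before the start, 19:10502784-10502812, minus: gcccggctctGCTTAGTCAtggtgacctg
GPX2, 122 bases before the start, 14:64942849-64942877, minus: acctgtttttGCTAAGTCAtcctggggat
NFE2L2, NQO1, GCLC and SRXN1 had no match in their windows, which says only that these letters are not there. The E-box CACGTG, the palindrome that MYC with MAX prefers, was in 0 of the 11 windows, compared with 7.26% of all windows. HMOX1 and GSR were not searched.

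The other genes of the pathway were taken from 9 lists with 115 genes, of which 101 were compared. BACH1, SLC3A2, GSTT2 and PRDX3 were not analysed here. In the miR-105 library 19 were higher and 23 lower than both controls by 2-fold, with a median log2 fold of 0.106, and in the library labelled MYC 21 were higher and 10 lower, with a median of 0.186. Over all genes the shares were 15.2% higher and 18.1% lower in the miR-105 library and 9.59% higher and 11.3% lower in the library labelled MYC, and the count of each list below is to be read against these shares. With GFP as sole control the miR-105 counts were 29 higher and 24 lower, so which direction held more genes depended on the control. The shares over all genes were not taken at that setting, so this shift cannot be credited to these genes. Between the controls 2 were higher and 3 lower in GFP than in vector. Both comparisons use the same control libraries. The filter averages all 4 libraries. CTH, GSTM1, GSTM2 and AKR1B10 passed it only through the library labelled MYC, where they were counted as higher, so their calls are partly set by the filter. At a filter of 5 CPM, for which no share over all genes was taken, that library had 16 higher and 9 lower.

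Among the 13 regulators compared, 1 was higher and 3 lower in the miR-105 library, with a median log2 fold of −0.57, and 0 were higher and 2 lower in the library labelled MYC. NFE2L1, the relative of NRF2 known for controlling proteasome genes, had 340.7 CPM in the miR-105 library and 740 CPM in the library labelled MYC, against 1519 CPM in GFP and 1304 CPM in vector. BACH2, a repressor that binds with small MAF proteins, had 0.314 CPM, from 2 reads, in the miR-105 library and 4.645 CPM in the library labelled MYC, against 9.39 CPM in GFP and 10.05 CPM in vector. MAFF, itself a small MAF protein, had 24.8 CPM in the miR-105 library and 41.3 CPM in the library labelled MYC, against 94.6 CPM in GFP and 102.1 CPM in vector. The scaffold AMER1, which can bind KEAP1, was the higher one, at 28.7 CPM in the miR-105 library and 21.8 CPM in the library labelled MYC, against 13.4 CPM in GFP and 8.65 CPM in vector.

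Of the 12 genes of glutathione synthesis and turnover, 2 were higher and 5 lower in the miR-105 library and 2 higher and 2 lower in the library labelled MYC. The partners of glutamate-cysteine ligase passed 2-fold in neither. GSS, glutathione synthetase, had 52.4 CPM in the miR-105 library and 33.75 CPM in the library labelled MYC, against 45.0 CPM in GFP and 51.5 CPM in vector. The cystine transporter SLC7A11 had 11.8 CPM in the miR-105 library and 14.6 CPM in the library labelled MYC, against 10.3 CPM in GFP and 7.89 CPM in vector. Genes that break glutathione down showed the wider differences. CHAC2, which cleaves it inside the cell, had 17.9 CPM in the miR-105 library and 3.60 CPM in the library labelled MYC, against 2.24 CPM in GFP and 2.16 CPM in vector. Its relative CHAC1, added after its value had been seen, went the other way. CHAC1 had 0.784 CPM, from 5 reads, in the miR-105 library and 2.56 CPM in the library labelled MYC, against 4.045 CPM in GFP and 3.568 CPM in vector. GGT1, a gamma-glutamyltransferase of the cell surface with near-identical copies, had 3.61 CPM in the miR-105 library and 0.758 CPM in the library labelled MYC, against 24.2 CPM in GFP and 17.95 CPM in vector. Its relative GGT5 was at 0.157 CPM, a single read, in the miR-105 library and 24.5 CPM in the library labelled MYC, against 1.73 CPM in GFP and 3.24 CPM in vector. The 2 tested cultures thus lay on opposite sides of the controls, but the miR-105 side is imprecise, at 1.80-fold to 454.6-fold below GFP (95% counting interval). GGT7 had 0.784 CPM, from 5 reads, in the miR-105 library and 7.11 CPM in the library labelled MYC, against 8.81 CPM in GFP and 7.35 CPM in vector. The oxoprolinase OPLAH, which recycles the glutamate part, had 12.7 CPM in the miR-105 library and 79.26 CPM in the library labelled MYC, against 61.47 CPM in GFP and 90.7 CPM in vector. The cysteine-making enzyme CTH was near the detection limit in the controls and passed the filter only through the library labelled MYC. It had 1.098 CPM in the miR-105 library and 2.56 CPM in the library labelled MYC, against 0.1445 CPM in GFP and 0.7568 CPM in vector. The aminopeptidase ANPEP, which trims a product of this breakdown, had 2472 CPM in the miR-105 library and 345.7 CPM in the library labelled MYC, against 1409 CPM in GFP and 1452 CPM in vector.

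Among 8 glutathione peroxidases and glutaredoxins, 2 were higher and 3 lower in the miR-105 library and 2 higher and 0 lower in the library labelled MYC. GPX8, a peroxidase of the endoplasmic reticulum, had 52.7 CPM in the miR-105 library and 34.9 CPM in the library labelled MYC, against 12.5 CPM in GFP and 11.9 CPM in vector. Secreted GPX3 had 0.3137 CPM, from 2 reads, in the miR-105 library and 1.896 CPM in the library labelled MYC, against 4.334 CPM in GFP and 2.595 CPM in vector. The glutaredoxins diverged. Cytosolic GLRX had 7.999 CPM in the miR-105 library and 19.7 CPM in the library labelled MYC, against 27.45 CPM in GFP and 37.1 CPM in vector. Mitochondrial GLRX2 had 19.8 CPM in the miR-105 library and 16.3 CPM in the library labelled MYC, against 6.36 CPM in GFP and 7.89 CPM in vector. Of 13 glutathione transferases, 1 was higher and 1 lower in the miR-105 library and 5 higher and 1 lower in the library labelled MYC. Of these 5, GSTM1 and GSTM2 passed the filter only through the library labelled MYC. GSTA4, which conjugates aldehydes from oxidised lipids, had 1.73 CPM in the miR-105 library and 37.3 CPM in the library labelled MYC, against 1.30 CPM in GFP and 2.05 CPM in vector. GSTM4, of the mu class, had 1.725 CPM in the miR-105 library and 10.9 CPM in the library labelled MYC, against 2.384 CPM in GFP and 2.595 CPM in vector. Its near copy GSTM1 had 0.4705 CPM in the miR-105 library and 2.655 CPM in the library labelled MYC, against 0.3612 CPM in GFP and 1.189 CPM in vector. Reads of these mu-class genes can be split between copies, so both levels are uncertain. GSTCD, named for a transferase-like domain, had 53.33 CPM in the miR-105 library and 11.38 CPM in the library labelled MYC, against 15.1 CPM in GFP and 8.324 CPM in vector. GSTK1, of mitochondria and peroxisomes, was lower in both tested cultures, at 113.4 CPM in the miR-105 library and 88.3 CPM in the library labelled MYC, against 266.6 CPM in GFP and 327.0 CPM in vector.

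Around TXNRD1, 2 of 13 thioredoxin and peroxiredoxin genes were higher and 4 lower in the miR-105 library, and 0 were higher or lower in the library labelled MYC. TXN, thioredoxin itself, had 286.7 CPM in the miR-105 library and 130.5 CPM in the library labelled MYC, against 97.2 CPM in GFP and 145.7 CPM in vector. The miR-105 library was thus 2.95-fold above GFP and 1.97-fold above vector, just short of the threshold, while TXNRD1, whose enzyme reduces thioredoxin, was lower. TXNIP, the inhibitor of thioredoxin, had 116.5 CPM in the miR-105 library and 1670 CPM in the library labelled MYC, against 2943 CPM in GFP and 2222 CPM in vector. PRDX1, a peroxiredoxin of the kind that sulfiredoxin repairs, had 552.9 CPM in the miR-105 library and 232.5 CPM in the library labelled MYC, against 217.4 CPM in GFP and 264.2 CPM in vector. Sestrins, stress-induced regulators of growth signalling, were lower in the miR-105 library. SESN1 had 22.9 CPM in the miR-105 library and 76.03 CPM in the library labelled MYC, against 50.93 CPM in GFP and 55.14 CPM in vector. SESN3 had 1.098 CPM in the miR-105 library and 5.499 CPM in the library labelled MYC, against 7.585 CPM in GFP and 3.568 CPM in vector.

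Of 11 genes of NADPH supply, 3 were higher and 0 lower in the miR-105 library, and 0 were higher and 2 lower in the library labelled MYC. The cytosolic malic enzyme ME1 had 66.0 CPM in the miR-105 library and 41.9 CPM in the library labelled MYC, against 24.85 CPM in GFP and 19.7 CPM in vector. ME2, a mitochondrial relative that works mainly with NAD, had 93.3 CPM in the miR-105 library and 39.15 CPM in the library labelled MYC, against 28.1 CPM in GFP and 24.1 CPM in vector. Mitochondrial isocitrate dehydrogenase IDH2 had 89.4 CPM in the miR-105 library and 12.4 CPM in the library labelled MYC, against 43.3 CPM in GFP and 43.0 CPM in vector, and so lay on opposite sides of the controls. ME3 had 4.235 CPM in the miR-105 library and 0 reads in the library labelled MYC, against 3.83 CPM in GFP and 3.57 CPM in vector. At a floor of 3 reads in that library it was at least 13.5-fold lower than in GFP and at least 12.5-fold lower than in vector.

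Detoxification and export was the list with the most higher genes. Of its 20 genes compared, 8 were higher and 2 lower in the miR-105 library, with a median log2 fold of 0.73, and 11 were higher and 2 lower in the library labelled MYC, with a median of 1.45. The shares of all genes that were higher were 15.2% and 9.59% in the same order. ABCC2, a pump for glutathione conjugates, had 44.5 CPM in the miR-105 library and 35.65 CPM in the library labelled MYC, against 5.42 CPM in GFP and 3.35 CPM in vector. Its relative ABCC4 had 24.5 CPM in the miR-105 library and 58.1 CPM in the library labelled MYC, against 3.54 CPM in GFP and 2.92 CPM in vector. The aldo-keto reductase AKR1C1, whose level is uncertain because AKR1C1, AKR1C2 and AKR1C3 are close copies that can share reads, had 76.7 CPM in the miR-105 library and 263.1 CPM in the library labelled MYC, against 21.45 CPM in GFP and 19.8 CPM in vector. AKR1C3 had 56.93 CPM in the miR-105 library and 202 CPM in the library labelled MYC, against 22.68 CPM in GFP and 22.59 CPM in vector. CBR3, a carbonyl reductase, had 12.9 CPM in the miR-105 library and 7.96 CPM in the library labelled MYC, against 2.17 CPM in GFP and 2.38 CPM in vector. The aldehyde dehydrogenase ALDH3A1 had 0.157 CPM, a single read, in the miR-105 library and 134.6 CPM in the library labelled MYC, against 3.97 CPM in GFP and 6.38 CPM in vector. The 11 higher genes in the library labelled MYC include the close copies AKR1C1, AKR1C2 and AKR1C3. AKR1B10, counted among the 11, passed the filter only through that library. The 2 lower genes there were CYP1B1 and ABCC3, both named after their values had been seen. CYP1B1 had 86.4 CPM in the miR-105 library and 77.0 CPM in the library labelled MYC, against 461.2 and 283.7 CPM in GFP and vector. ABCC3 had 126.6 CPM in the miR-105 library and 75.3 CPM in the library labelled MYC, against 366.1 and 247.7 CPM in GFP and vector. The part of NRF2 in the levels of this list was not tested.

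Of 8 heme and iron genes around HMOX1, 4 were lower and 0 higher by 2-fold in the miR-105 library, with a median log2 fold of −0.865, and in the library labelled MYC 1 of 8 was lower and 0 higher. The heavy chain of the iron store ferritin, FTH1, had 1313 CPM in the miR-105 library and 4629 CPM in the library labelled MYC, against 3650 CPM in GFP and 4931 CPM in vector. The light chain FTL had 217.4 CPM in the miR-105 library and 439.7 CPM in the library labelled MYC, against 467.7 CPM in GFP and 779.5 CPM in vector. Both ferritin genes have many processed pseudogenes that can take reads, so their levels are uncertain. BLVRB, a biliverdin and flavin reductase, had 32.94 CPM in the miR-105 library and 48.73 CPM in the library labelled MYC, against 76.79 CPM in GFP and 142.3 CPM in vector. SLC48A1, a heme transporter, had 7.685 CPM in the miR-105 library and 8.63 CPM in the library labelled MYC, against 30.8 CPM in GFP and 29.4 CPM in vector. The other 4 genes passed 2-fold against both controls in neither library, and had mean log2 folds in the miR-105 library of 1.13 for the transferrin receptor TFRC, 1.03 for the heme oxygenase HMOX2, 0.17 for FECH and −0.26 for BLVRA. TFRC, HMOX2, FECH and BLVRA were added after their values had been seen. Of 3 genes that remove superoxide and peroxide, SOD2, the mitochondrial superoxide dismutase, had 151.4 CPM in the miR-105 library and 9921 CPM in the library labelled MYC, against 345.1 CPM in GFP and 349.4 CPM in vector.

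**Figure D4:**
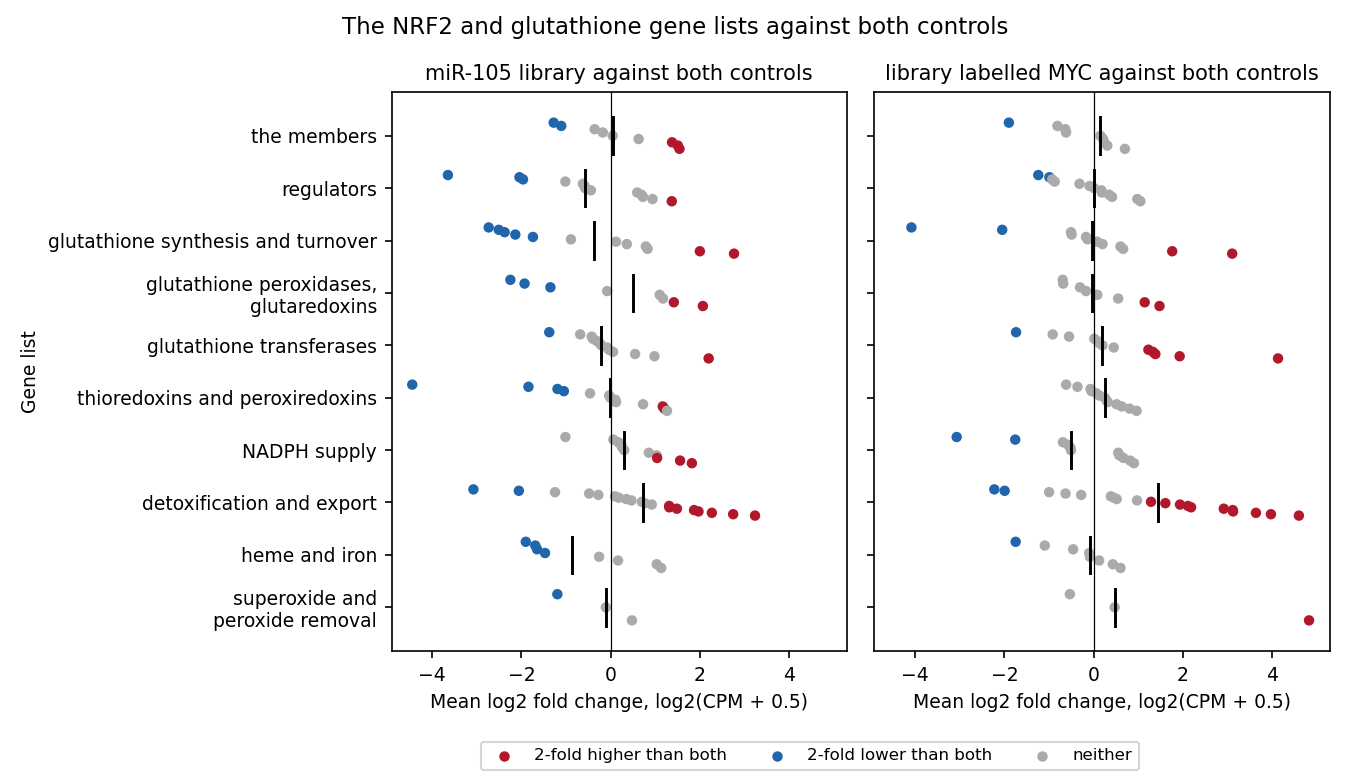
Mean log2 fold change against both controls, after adding 0.5 CPM, of every compared gene of the 9 lists and of the 9 compared members, in the miR-105 library (left) and the library labelled MYC (right). Each point is a gene, coloured by whether it passed 2-fold against both controls, and black lines are list medians. The list of detoxification and export has medians of 0.73 and 1.45, and the heme and iron list has a median of −0.865 on the left and −0.088 on the right.

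The genes whose levels ran most like NFE2L2 and NQO1 were sought among 12484 genes by the Euclidean distance of log2 levels centred on each gene's own mean, over the 4 libraries. For NFE2L2 these were TK2 at a distance of 0.018, TRMT1L at 0.051 and ZNF71 at 0.052. For NQO1 they were VBP1 at 0.045, ACOT7 at 0.087 and GAR1 at 0.11. With 4 libraries and so many genes, close matches are easily found, and no other member was among them. VBP1 had 83.0 CPM in the miR-105 library and 32.8 CPM in the library labelled MYC, against 26.5 CPM in GFP and 31.6 CPM in vector, the order seen for NQO1.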

How the data were processed

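Poly(A) RNA from 4 MCF10A cultures, 1 library each, was sequenced, with TopHat2, edgeR and build hg19 named, without versions, in the submitters' processing notes. For the read counter, annotation and strand the sources used here give nothing. The values the authors deposited were a signal adjusted to a common depth, not the counts the design had assumed, and had the form of edgeR pseudo-counts. Inverting that adjustment at a dispersion of 0.0553 gave whole reads for 100% of 18859 values in the vector, miR-105 and MYC libraries and 99.9894% in GFP, where 2 values exceeded the relative tolerance of 1e-05, with residuals of up to 1.12e-05. Of 18859 rows, 19 exact repeats were dropped, leaving 18840 genes.

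CPM used recovered totals and TMM factors of 0.9295 (miR-105), 1.077 (MYC), 0.987 (GFP) and 1.01 (vector). Only the 12484 genes that averaged 1 CPM or more over the 4 libraries were compared, so a gene high in 1 library alone can pass. A single gene's fold is its plain CPM ratio, while log2 folds follow addition of 0.5 CPM, which understates low genes. Intervals are 95% exact, Clopper-Pearson for ratios and Poisson for levels, and cover counting error only, since no molecular identifiers were given and PCR copies count as reads. No test was made between conditions. As an alternative, edgeR's quasi-likelihood test and DESeq2 took the GFP and vector libraries as 1 control group, with Benjamini-Hochberg adjustment. This leaves 1 residual degree of freedom and compares these libraries only. The inversion and both tests were run on simulated data. The inversion returned 100% of the simulated reads in each library. Both tests missed some of the genes that had been changed, DESeq2 more than edgeR, and neither was free of false calls.

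The members and lists were chosen with earlier results of these data known. Named were all members, up to 4 called genes per list and comparison with the largest mean log2 fold, with partners of members, and the 3 genes nearest to NFE2L2 and to NQO1. Positions, exon lengths and 3′ UTRs come from GENCODE v29 on GRCh38 and promoters and microRNAs from RefSeq, matched by symbol, not from hg19. Computation used R 4.3.3, edgeR 4.0.16, DESeq2 1.42.0, Python 3.11.15 and SciPy 1.17.1.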

Additional observations from a re-analysis of the deposited data

How the results depend on the processing

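Other scalings, filters, pseudocounts, thresholds and controls were tried. No member's log2 fold that had been counted changed sign. Of 164 alternative log2 folds of members, 155 stayed within counting error and 9 moved, of which 6 belong to TXNRD1, between −1.12 and −1.43 in the miR-105 library and between −1.74 and −2.05 in the library labelled MYC. The sign of KEAP1 in the miR-105 library turned from 0.046 to −0.058 with library totals alone and to −0.093 with the vector library as sole control. At a 3-fold threshold the members counted in the miR-105 library fell to 0, and at 1.5-fold those in the library labelled MYC became 3, of which 1 was higher and 2 lower. Other pathway genes counted in the miR-105 library, 42 in all with 19 higher and 23 lower, were 25 at 3-fold, 29 higher and 24 lower with GFP as sole control, 33 and 27 at 1.5-fold and 28 and 24 with edgeR, and those between GFP and vector, 5 in all, were 0 with a filter of 5 CPM, 20 at 1.5-fold and 2 at 3-fold. Shares over all genes were not taken at the other thresholds, filters and sole controls. The counts there show how the calls move with the setting and are not results about these genes. The median log2 fold of the pathway genes in the miR-105 library, 0.106, was 0.003 with library totals alone and 0.0 with no filter. Library totals alone moved the median log2 fold of all genes to −0.094 in the miR-105 library and 0.141 in the library labelled MYC. With the GFP and vector libraries as 1 control group, edgeR and DESeq2 each called 5 members in the miR-105 library and 1 in the library labelled MYC. Depth limits HMOX1 and GPX2. No paired analysis was possible because each construct had 1 library.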

Other observations

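Genes near the pathway were read from a list of selenoprotein synthesis and a list of oxidant producers, chosen after the other values had been seen. TXNRD1 needs the selenocysteine machinery, of which 6 genes were compared. SEPHS1, a paralogue of selenophosphate synthetase, had 120.8 CPM in the miR-105 library and 39.7 CPM in the library labelled MYC, against 38.9 CPM in GFP and 41.3 CPM in vector. SEPSECS, which makes selenocysteine on its tRNA, had 7.999 CPM in the miR-105 library and 32.3 CPM in the library labelled MYC, against 23.6 CPM in GFP and 20.2 CPM in vector. These were the only 2 of the 6 beyond 2-fold of both controls in the miR-105 library, and 0 were in the library labelled MYC. Over all genes the shares beyond 2-fold in either direction were 33.3% and 20.9% in the same order, so 2 of 6 is near the background.

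Of 15 genes of the NADPH oxidases and their partners, 6 were compared. CYBA, the small membrane subunit shared by several of these oxidases, had 298 reads (46.7 CPM) in the miR-105 library and 0 reads in the library labelled MYC, against 921 reads (66.5 CPM) in GFP and 749 reads (81.0 CPM) in vector. In the library labelled MYC 3 reads would be 0.284 CPM. DUOX1, an oxidase of epithelial surfaces, had 0.4705 CPM, from 3 reads, in the miR-105 library and 17.9 CPM in the library labelled MYC, against 7.15 CPM in GFP and 4.76 CPM in vector. NOXA1, an activator subunit, had 0.314 CPM, from 2 reads, in the miR-105 library and 10.1 CPM in the library labelled MYC, against 12.1 CPM in GFP and 14.7 CPM in vector. NOX5 was higher in the miR-105 library, at 10.2 CPM, and had 2.84 CPM in the library labelled MYC, against 4.33 CPM in GFP and 1.73 CPM in vector.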
